A study of Ovis aries with 24 samples.

Results

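Prolactin, growth hormone and 7 genes that act beside them were followed through cultured sheep pituitary cells that had been sorted or left unsorted and had received estradiol (E2) or vehicle. The 9 genes were POU1F1, PRL, GH, DRD2, GHRHR, GHSR, AGTR1, ANGPT1 and DLK1. They were taken by gene name from the count tables, and each name matched 1 of the 27054 features, so all 9 were found. They were grouped by what they are known to do in lactotropes and somatotropes. The GH feature carries the growth hormone counts. Sheep carry near-identical copies of the growth hormone gene, so its counts may be incomplete or shared between copies.

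POU1F1 is a pituitary transcription factor needed for lactotropes, the cells that make prolactin, for somatotropes, which make growth hormone, and for thyrotropes, which make thyrotropin. It binds the promoters of PRL and GH. Lactotropes are held back by dopamine through the receptor DRD2, and somatotropes are driven by growth hormone-releasing hormone through GHRHR and by ghrelin through GHSR. Estradiol is a classical regulator of prolactin and of the gonadotropin axis.

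The cells came from the dispersed pituitaries of ovariectomized Western white faced ewes. An adenovirus was added 24 hours after dispersal and drove green fluorescent protein (GFP) in gonadotropes, the cells that secrete luteinizing and follicle-stimulating hormone. E2 at 10 nM, or ethanol as vehicle, was given 3 days after infection and for 6 hours. The groups were sorted cells with E2, sorted cells with vehicle, unsorted cells with E2 and unsorted cells with vehicle, with 6 RNA-seq libraries per group and 24 in all. Sorted cells are those the labels call gonadotropes, recovered by fluorescence, and unsorted cells are the mixed anterior pituitary culture. All groups share the ovariectomy, the culture and, as far as the labels say, the virus. The labels do not say whether replicates came from separate animals or cultures. The p-values therefore measure the spread between these libraries, or between same-numbered differences where libraries are paired, and either spread may be technical. Nor is it stated if the unsorted cells went through the cell sorter.

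Over the 4 groups, library totals were 4185088 to 6189629 counts in replicates 1 to 3 and 19216735 to 37042448 counts in replicates 4 to 6, and these depth sets were treated as possible batches. Libraries with the same replicate number deviated together, so fits with the replicate number as a block ("with the replicate block") are given wherever they change a call of the 9 genes or a list count that is printed. Fold changes are log2 values ± SE from edgeR's quasi-likelihood test, and a gene is said to rise or fall where its Benjamini-Hochberg adjusted p over all genes tested is under 0.05. Levels are CPM, the usual per-library scaling of counts, here on TMM-scaled library sizes. Gonadotrope markers stood at a summed 2492 to 5632 CPM in sorted vehicle libraries and 292 to 1323 CPM in unsorted vehicle libraries. All 5 of 5 rose with sorting under vehicle, beside 24.4% of all genes. Even so, PRL was the gene with the most counts in every one of the 24 libraries, those labelled as sorted gonadotropes included, and GH was second in 15 of them. In bulk RNA, more cells of a type and more RNA per cell cannot be told apart.

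POU1F1 (ENSOARG00000017058) separated the groups by sorting under either treatment and, in sorted cells, by E2. Across 6 libraries its lowest, median and highest levels were 183, 218 and 259.9 CPM in sorted E2 cells. They were 329, 364 and 419 CPM in sorted vehicle cells. In unsorted E2 cells they were 98.5, 150.5 and 159.7 CPM, and in unsorted vehicle cells 159, 206 and 226 CPM. These unsorted groups overlapped narrowly, at 159.67 CPM in the highest E2 library and 159.19 CPM in the lowest vehicle library. Sorted vehicle libraries were the highest throughout, with no overlap with any other group. The order of the group means was sorted vehicle (365 ± 34.5 CPM, SD, n = 6), sorted E2 (216 ± 27.8 CPM), unsorted vehicle (201 ± 22.7 CPM) and unsorted E2 (141 ± 23.0 CPM). Sorted E2 and unsorted vehicle cells, neighbours in that order, differed by less than their spread.

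**Figure D1:**
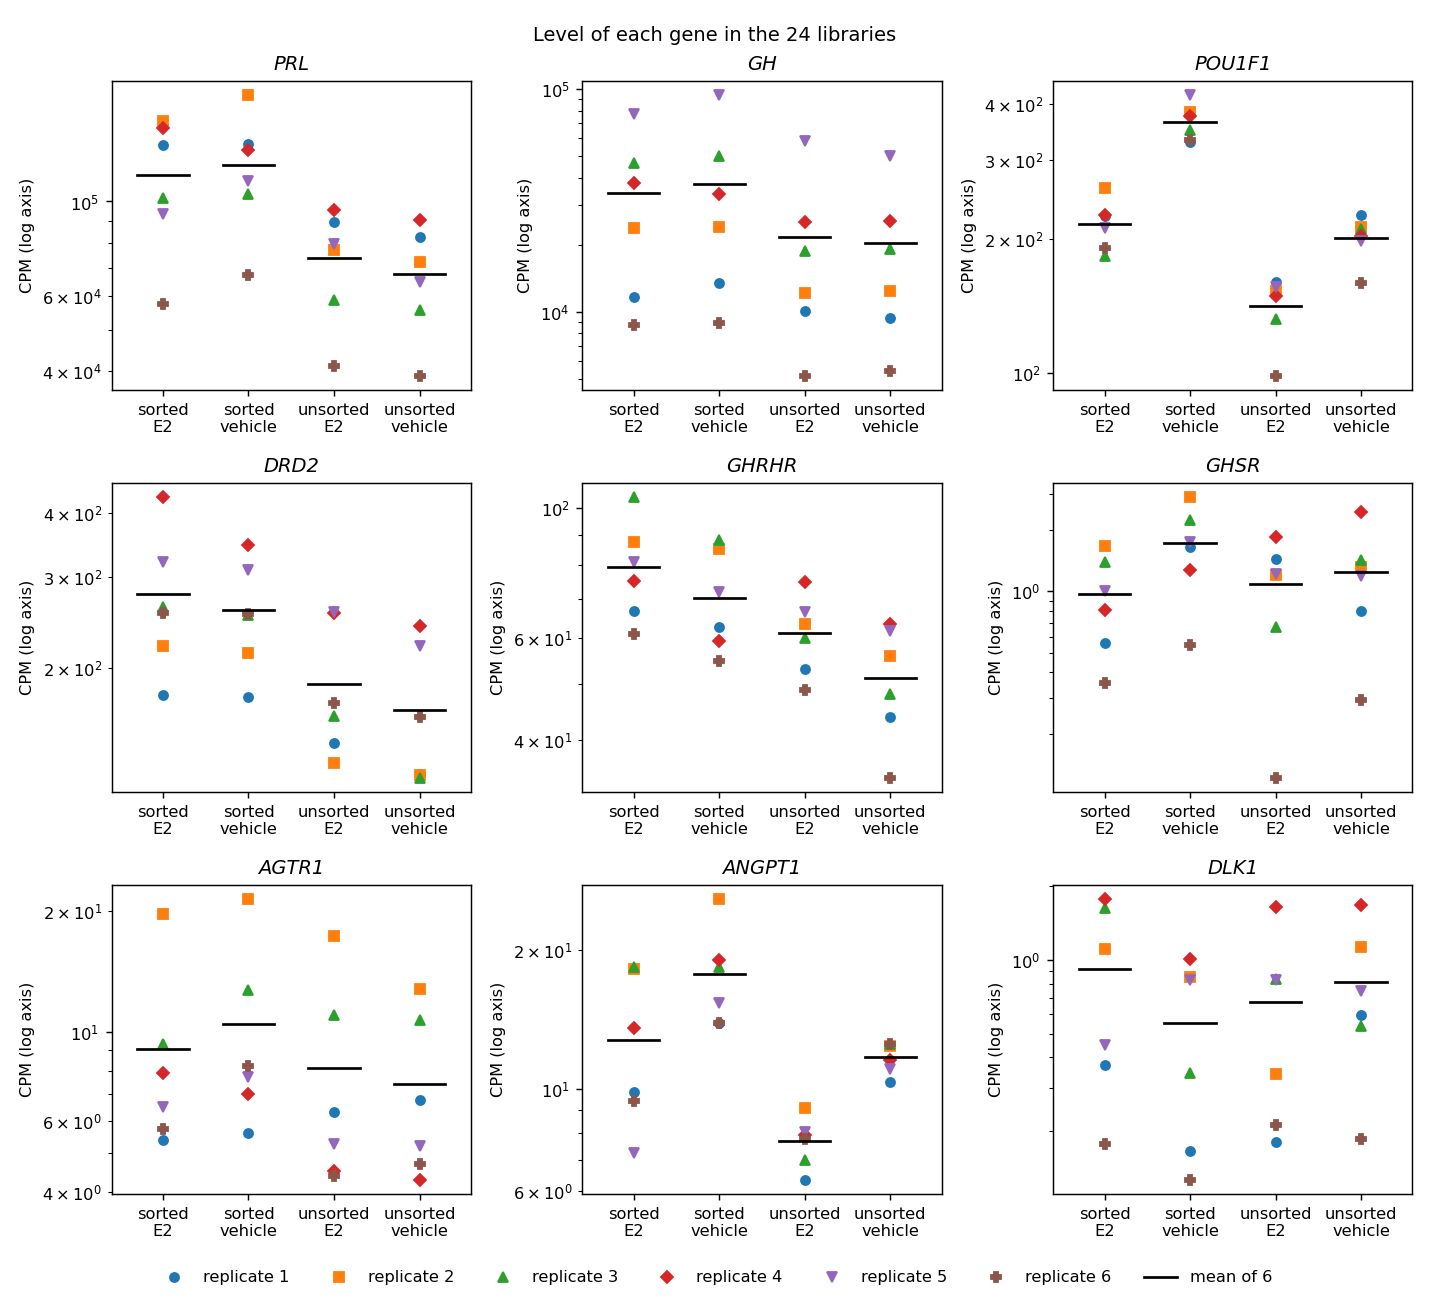
Levels of the 9 genes in CPM on log axes, 1 point per library, with marker shape and colour for the replicate number and a line for the mean of the 6 libraries of a group. POU1F1 sits highest in sorted vehicle cells (329 to 419 CPM), while GH is ordered by replicate number, with replicate 5 highest and replicate 6 lowest in each of the 4 groups.

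The first comparison asks what the sort changed. POU1F1 rose in sorted over unsorted vehicle cells by 0.855 ± 0.097 (adjusted p = 7.24e-06, edgeR), with 6 of 6 same-numbered libraries higher in sorted cells. In sorted over unsorted E2 cells it rose by 0.61 ± 0.12 (adjusted p = 0.00111), again in 6 of 6, and the groups did not overlap in either treatment. The values within replicates 1 to 3 and 4 to 6 were 0.72 and 1.00 under vehicle and 0.58 and 0.63 under E2. Both calls held in all 12 fits that each left out 1 library.

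The second comparison asks what 6 hours of E2 changed. POU1F1 fell in sorted cells, with a log2 change of −0.755 ± 0.096 (adjusted p = 0.00102, edgeR). All 6 E2 libraries were below all 6 vehicle libraries, and the same-numbered ratios ran from −0.98 to −0.55. The depth sets gave −0.67 and −0.85, and the fall was called in all 12 fits without 1 library. In unsorted cells POU1F1 was also lower with E2 in 6 of 6 same-numbered libraries, by a log2 change of −0.51 ± 0.12. That change did not pass without the block (adjusted p = 0.17) and passed with it (−0.52 ± 0.047, adjusted p = 4.65e-07, −0.55 and −0.49 in the depth sets). DESeq2 called it as well (adjusted p = 0.0222). The authors' deposited tables list POU1F1 at a log2 change of −0.74 with E2 in sorted cells (FDR 5.36e-07) and −0.52 in unsorted cells (FDR 0.0663).

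**Figure D2:**
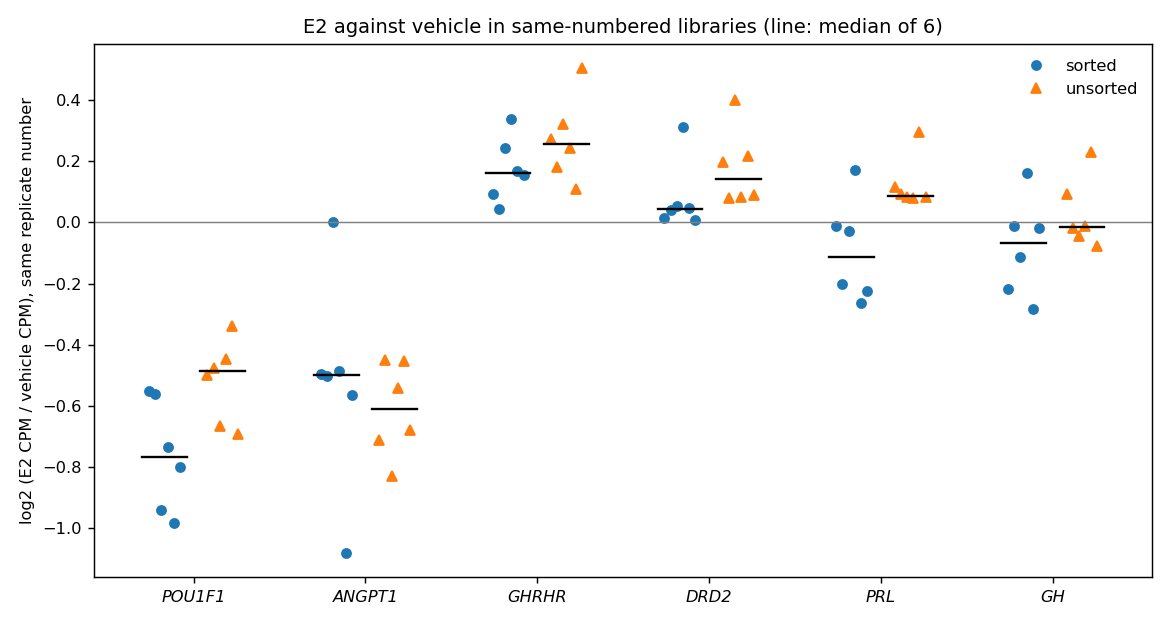
Log2 ratio of the E2 over the vehicle CPM in libraries of the same replicate number, for 6 of the genes, with sorted cells left of unsorted cells and a line at the median of 6. POU1F1 lies below 0 in all 12 pairs, with medians of −0.77 in sorted and −0.49 in unsorted cells, while GHRHR and DRD2 lie above 0 in all 12.

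PRL (ENSOARG00000009137), the prolactin gene, was higher after sorting and was not called with E2. Its share of all counts was 6.17, 12.2 and 15.2% (lowest, median and highest of 6) in sorted E2 cells. The same values were 7.14, 11.7 and 16.8% in sorted vehicle cells. In unsorted E2 cells they were 4.26, 7.72 and 9.68%, and in unsorted vehicle cells 3.96, 6.99 and 8.98%. The sorted and unsorted ranges overlapped and replicate 6 was lowest in all 4 groups, yet sorted was higher in 6 of 6 same-numbered libraries under either treatment. PRL rose in sorted over unsorted vehicle cells by 0.85 ± 0.24 (adjusted p = 0.00928, edgeR; 0.98 and 0.69 in the depth sets), a call that held in all 12 fits without 1 library.

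Under E2 the rise of PRL in sorted over unsorted cells was 0.64 ± 0.26 (adjusted p = 0.0493, edgeR), with 0.81 and 0.41 in the depth sets. This call stood at the threshold: it held in 2 of 12 fits without 1 library, those without sorted E2 replicate 6 or unsorted E2 replicate 4, with adjusted p up to 0.117 in the others, and with PRL and GH left out of the scaling its adjusted p was 0.0513. With the replicate block it was 0.62 ± 0.14 (adjusted p = 0.00239). Measured as a share of counts, sorted exceeded unsorted vehicle cells by 5.18 percentage points (11.96 ± 3.36% against 6.78 ± 1.84%, SD, n = 6 each; 2-sided exact permutation test, adjusted p = 0.0346 over 4 comparisons). The share test passed in 1 of 12 repeats without 1 library, the one without sorted vehicle replicate 6, and its adjusted p reached 0.0693. Within replicates 1 to 3 that difference was 6.71 points and within replicates 4 to 6 it was 3.65 points, neither of which 3 against 3 libraries can bring below an exact p of 0.1. Under E2 the difference was 4.12 points (adjusted p = 0.0779 by the exact permutation test and 0.0417 by an exact sign-flip test of same-numbered libraries).

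E2 left PRL within the spread of its groups. In sorted cells its log2 change was −0.072 ± 0.26 (adjusted p = 1, edgeR), with 1 of 6 same-numbered libraries higher with E2. In unsorted cells it was 0.13 ± 0.23 (adjusted p = 1), with 6 of 6 higher with E2, by same-numbered log2 ratios of 0.080 to 0.295. With the replicate block the unsorted value was 0.12 ± 0.047, and it still missed the threshold (adjusted p = 0.166). In sorted cells the blocked value was −0.090 ± 0.051 (adjusted p = 0.32), and it passed only without pair 4 (adjusted p = 0.0128). The share of counts in unsorted cells was 0.576 points higher with E2, with an adjusted p of 0.805 by the exact permutation test and 0.0417 by the exact sign-flip test, for which 0.0312 is the smallest raw p that 6 pairs allow.

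GH (ENSOARG00000013932) varied more between replicate numbers than between treatments or preparations. It took 0.937, 2.97 and 7.44% of counts (lowest, median and highest) in sorted E2 cells and 0.942, 2.78 and 8.70% in sorted vehicle cells. In unsorted E2 cells the values were 0.532, 1.55 and 5.65%, and in unsorted vehicle cells 0.552, 1.59 and 5.01%. Replicate 5 was the highest and replicate 6 the lowest in all 4 groups, and the groups overlapped. The replicate number accounted for 86.9% of the sum of squares of log2 CPM of GH over the 24 libraries, sorting for 10.8% and E2 for 0.012%.

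Sorted cells had more GH in 6 of 6 same-numbered libraries under each treatment. The log2 change without the block was 0.86 ± 0.62 under vehicle (adjusted p = 0.265, edgeR) and 0.65 ± 0.61 under E2 (adjusted p = 0.388). With the replicate block GH rose by 0.81 ± 0.13 under vehicle (adjusted p = 0.000225; 0.96 and 0.66 in the depth sets) and by 0.70 ± 0.15 under E2 (adjusted p = 0.00208; 0.84 and 0.54). Both blocked calls held when each same-numbered pair was left out in turn. With E2, GH changed by −0.12 ± 0.62 in sorted and 0.092 ± 0.58 in unsorted cells (adjusted p = 1 in both), and by −0.078 ± 0.050 and 0.028 ± 0.048 with the block (adjusted p = 0.398 and 0.864). The blocked value in sorted cells passed only without pair 4 (adjusted p = 0.0315).

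**Figure D3:**
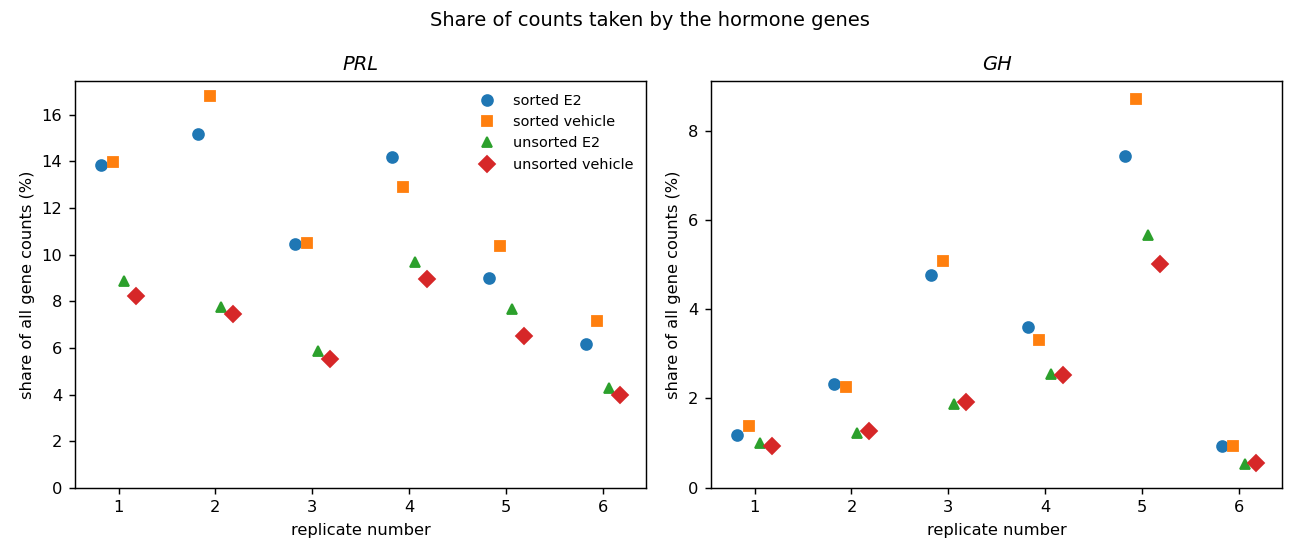
Share of all gene counts taken by PRL (left) and GH (right), in percent, by replicate number, 1 point per library. Within each number the sorted libraries lie above the unsorted ones for both genes. Between replicate numbers the GH share runs from 0.942% to 8.70% in sorted vehicle cells.

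The ratio of PRL to GH counts differed widely between replicate numbers. It ran from 1.21 to 11.7 in sorted E2, 1.19 to 10.1 in sorted vehicle, 1.36 to 8.90 in unsorted E2 and 1.302 to 8.75 in unsorted vehicle libraries. The group medians of 5.22, 5.66, 5.05 and 4.70 lay close together beside those ranges.

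DRD2 (ENSOARG00000017850), the dopamine receptor that restrains lactotropes, was higher after sorting. Its lowest, median and highest levels were 177, 259 and 429.8 CPM in sorted E2 cells and 176, 254 and 346 CPM in sorted vehicle cells. Unsorted E2 cells had 131, 166 and 256 CPM, and unsorted vehicle cells 122, 142 and 242 CPM. The groups overlapped, and in each of them replicates 4 and 5 were the highest. DRD2 rose in sorted over unsorted vehicle cells by 0.63 ± 0.20 (adjusted p = 0.0171, edgeR; 0.79 and 0.54 in the depth sets) in 6 of 6 same-numbered libraries. Under E2 the rise was 0.57 ± 0.22 (adjusted p = 0.0441), and it held in 4 of 12 fits without 1 library (adjusted p up to 0.119) and was lost with no filter on low counts (adjusted p = 0.0734), against 0.56 ± 0.080 with the block (adjusted p = 0.000129; 0.60 and 0.51).

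DRD2 lay slightly higher with E2 than with vehicle in same-numbered libraries. It was higher with E2 in 6 of 6 of them in both preparations, with median log2 ratios of 0.045 in sorted and 0.14 in unsorted cells. Neither change passed without the block (0.10 ± 0.20 in sorted and 0.17 ± 0.22 in unsorted cells, adjusted p = 1 in both). With the block DRD2 rose in unsorted cells by 0.17 ± 0.046 (adjusted p = 0.0304) and missed the threshold in sorted cells (0.086 ± 0.043, adjusted p = 0.245). The blocked call in unsorted cells was lost without pair 1, 3, 5 or 6 (adjusted p up to 0.139), and neither depth set gave it alone (0.23 and 0.14, adjusted p = 0.423 and 0.164).

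GHRHR (ENSOARG00000007636), the somatotrope receptor for growth hormone-releasing hormone, was higher after sorting and higher with E2 in nearly every pair. It stood at 60.9, 77.9 and 104 CPM (lowest, median and highest) in sorted E2 cells and 54.6, 67.2 and 88.3 CPM in sorted vehicle cells. In unsorted E2 cells it stood at 48.9, 61.7 and 74.8 CPM, and in unsorted vehicle cells at 34.4, 51.9 and 63.2 CPM. All groups overlapped, and replicate 6 was the lowest in each. Sorting raised it by 0.45 ± 0.17 under vehicle (adjusted p = 0.0377, edgeR) and 0.36 ± 0.14 under E2 (adjusted p = 0.0431). The call under vehicle held in 5 of 12 fits without 1 library (adjusted p up to 0.095). The call under E2 held in 3 of 12 (adjusted p up to 0.105) and was lost with no filter on low counts (adjusted p = 0.0545). With the block both held without each pair in turn. In the depth sets the changes were 0.68 and 0.24 under vehicle and 0.55 and 0.16 under E2, and replicates 4 to 6 alone did not pass (adjusted p = 0.144 and 0.152).

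With E2, GHRHR was higher in 6 of 6 same-numbered libraries in both preparations. Without the block its log2 changes were 0.18 ± 0.15 in sorted and 0.25 ± 0.15 in unsorted cells (adjusted p = 1 in both). With the block it rose by 0.18 ± 0.049 in sorted cells (adjusted p = 0.013, edgeR) and by 0.27 ± 0.054 in unsorted cells (adjusted p = 0.00276), and both calls held without each pair in turn. The depth sets gave 0.13 and 0.21 in sorted and 0.26 and 0.29 in unsorted cells, and neither set of 3 pairs passed alone (lowest adjusted p 0.0644).

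GHSR (ENSOARG00000020744), the ghrelin receptor, was counted sparsely, with 3 to 36 counts per library in sorted and 4 to 81 in unsorted cells. Its lowest, median and highest levels were 0.353, 0.907 and 1.67 CPM in sorted E2 cells and 0.545, 1.71 and 2.90 CPM in sorted vehicle cells. Unsorted E2 cells had 0.121, 1.21 and 1.84 CPM, and unsorted vehicle cells 0.292, 1.25 and 2.46 CPM. The groups overlapped, but sorted E2 libraries lay below their same-numbered vehicle libraries in 6 of 6. In sorted cells the E2 change was −0.87 ± 0.45 (adjusted p = 0.842, edgeR), and with the block GHSR fell by 0.78 ± 0.22 on the log2 scale (adjusted p = 0.0223). Without 3 of the 6 pairs GHSR did not reach the filter on low counts, and the blocked call held in the other 3 fits (adjusted p 0.0361 to 0.0498). Neither depth set gave the call alone: GHSR missed the filter in replicates 1 to 3 and the threshold in replicates 4 to 6. In unsorted cells the change was −0.23 ± 0.57 (adjusted p = 1), lower in 4 of 6. Sorting gave 0.37 ± 0.48 under vehicle and −0.27 ± 0.55 under E2 (adjusted p = 0.544 and 0.7).

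AGTR1 (ENSOARG00000015385), the angiotensin II receptor, which in the rat is found on lactotropes, was set mostly by the replicate number. It stood at 5.39, 7.20 and 19.6 CPM (lowest, median and highest) in sorted E2 cells and 5.62, 7.96 and 21.3 CPM in sorted vehicle cells. In unsorted E2 cells the values were 4.38, 5.79 and 17.3 CPM, and in unsorted vehicle cells 4.28, 5.98 and 12.8 CPM. Replicate 2 was the highest in all 4 groups, and the groups overlapped. Sorting under vehicle gave 0.52 ± 0.36 (adjusted p = 0.248, edgeR), and with the block AGTR1 rose by 0.50 ± 0.15 (adjusted p = 0.0136; 0.33 and 0.68 in the depth sets), a call lost without pair 6 (adjusted p = 0.0519). Under E2 sorting gave 0.17 ± 0.41 (adjusted p = 0.741), and 0.23 ± 0.15 with the block (adjusted p = 0.197). The depth sets disagreed there, with same-numbered log2 ratios of −0.231, 0.184 and −0.242 in replicates 1 to 3. In replicates 4 to 6 they were 0.807, 0.309 and 0.392. The blocked fit of replicates 4 to 6 alone called 5 of the 9 genes, all higher, AGTR1 among them. E2 changed AGTR1 by −0.20 ± 0.38 in sorted and 0.14 ± 0.39 in unsorted cells (adjusted p = 1 in both).

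ANGPT1 (ENSOARG00000015100), a secreted growth factor for blood vessels that binds the receptor TEK, was lower with E2 in nearly every pair. Its lowest, median and highest levels were 7.26, 11.7 and 18.4 CPM in sorted E2 cells and 13.9, 16.9 and 25.8 CPM in sorted vehicle cells. Unsorted E2 cells had 6.33, 7.87 and 9.08 CPM, and unsorted vehicle cells 10.4, 11.99 and 12.5 CPM. The unsorted E2 libraries all lay below the unsorted vehicle libraries, and the sorted vehicle libraries all lay above the unsorted vehicle ones. In unsorted cells the E2 change was −0.60 ± 0.12 in 6 of 6 same-numbered libraries, which missed the threshold without the block (adjusted p = 0.071, edgeR). With the block ANGPT1 fell there by 0.59 ± 0.082 on the log2 scale (adjusted p = 7.58e-05; −0.65 and −0.55 in the depth sets, adjusted p = 0.182 and 0.00298), and DESeq2 called it without a block (adjusted p = 0.000334).

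In sorted cells the E2 change of ANGPT1 was −0.48 ± 0.25 (adjusted p = 0.842, edgeR), and 5 of 6 same-numbered libraries were lower with E2, with replicate 3 level at a log2 ratio of 0.001. With the replicate block the log2 change of −0.56 ± 0.10 passed (adjusted p = 0.000707), as did replicates 4 to 6 alone (−0.70, adjusted p = 0.00251) but not replicates 1 to 3 (−0.33, adjusted p = 0.268). The blocked E2 calls held in both preparations without each pair in turn. Sorting raised ANGPT1 under vehicle by 0.59 ± 0.16 (adjusted p = 0.00689; 0.71 and 0.43 in the depth sets). Under E2 sorting raised it by 0.70 ± 0.23 (adjusted p = 0.019), and leaving out sorted E2 replicate 2 lost the call (adjusted p = 0.0561). The depth sets gave 1.04 and 0.27 under E2, the second short of the threshold (adjusted p = 0.236), and the blocked call was lost without pair 4 (adjusted p = 0.0512). ANGPT1 also spread more in sorted than in unsorted cells under either treatment. With E2 the SD was 4.73 CPM in sorted cells, against 0.943 CPM in unsorted cells. With vehicle the levels ran from 13.9 to 25.8 CPM in sorted cells, against 10.4 to 12.5 CPM in unsorted cells.

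DLK1 (ENSOARG00000002307), a membrane protein related to the Notch ligands, was near the floor of detection, with 1 to 62 counts per library. Its lowest, median and highest levels were 0.177, 0.782 and 1.77 CPM in sorted E2 cells and 0.126, 0.587 and 1.01 CPM in sorted vehicle cells. In unsorted E2 cells they were 0.181, 0.585 and 1.65 CPM, and in unsorted vehicle cells 0.186, 0.674 and 1.67 CPM. The groups overlapped and replicate 4 was the highest in each. DLK1 did not reach the filter on low counts in sorted over unsorted vehicle cells or in sorted E2 over vehicle cells. Where it was tested it gave 0.21 ± 0.63 for sorting under E2 (adjusted p = 0.795, edgeR) and −0.14 ± 0.58 for E2 in unsorted cells (adjusted p = 1), and no difference was detectable at this depth.

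Counted together, 5 of the 8 genes tested rose in sorted over unsorted vehicle cells and 0 fell, where 24.4% of all 14468 genes tested rose and 50.2% were called in either direction. The 5 were PRL, POU1F1, DRD2, ANGPT1 and GHRHR, and with the replicate block GH and AGTR1 made 7, beside 32.5% of all genes higher, 31.1% lower and 63.6% called. The median log2 change was 0.61 over the 8 genes and 0.016 over all genes. Under E2 PRL, POU1F1, DRD2, ANGPT1 and GHRHR again rose, 5 of 9, beside 25.8% of all genes higher, 26% lower and 51.8% called. With the block GH joined them, and 6 rose beside 33.9% higher, 31.8% lower and 65.7% called. Leaving out 1 library under E2 gave between 2 and 5. As 24.4% of all genes rose with sorting, a rise alone does not set a gene apart.

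For E2 in sorted cells 1 of 8 genes tested was called, POU1F1, which fell, where 0.258% of all 14334 genes fell, 1.11% rose and 1.37% changed in either direction. With the block 3 fell (POU1F1, ANGPT1 and GHSR), beside 6.2% of all genes, and GHRHR rose, beside 7.03% higher and 13.2% called. For E2 in unsorted cells edgeR called 0 of 9, beside 0.245% of all 15083 genes, 0.0331% lower and 0.212% higher. An unadjusted p under 0.05 was reached by POU1F1 and ANGPT1, and DESeq2 called these 2. With the block 2 fell (POU1F1 and ANGPT1), beside 2.37% of all genes, and 2 rose (DRD2 and GHRHR), beside 2.86%, with 5.24% of all genes called. The median log2 change with E2 was −0.16 over the 8 genes in sorted and 0.092 over the 9 genes in unsorted cells, and 0 and −0.010 over all genes.

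The comparisons share libraries. Sorted vehicle libraries are the numerator in sorted over unsorted vehicle cells and the denominator in sorted E2 over vehicle cells. Opposite signs in these 2 comparisons are therefore not independent. Whether E2 acted differently in sorted and unsorted cells was tested as the difference of the 2 E2 effects. For POU1F1 that difference, sorted minus unsorted, was −0.25 ± 0.16 (adjusted p = 1, edgeR), and −0.25 ± 0.11 with the block (adjusted p = 0.794). It was 0.11 ± 0.27 for ANGPT1, −0.082 ± 0.22 for GHRHR and −0.20 ± 0.36 for PRL (adjusted p = 1 in each). edgeR called 0 of 9 genes, with and without the block, 0 of 9 had an unadjusted p under 0.05 without it, and DESeq2 called 0, beside 0.0264% of all 15134 genes without the block and 0.463% with it. A p that misses the threshold does not show that the effects were equal.

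The genes differed in what their levels followed. Of the sum of squares of log2 CPM over the 24 libraries, E2 took 37.3% for POU1F1 and 29.7% for ANGPT1, against 10.2% for GHRHR, 8.64% for GHSR, 1.69% for DRD2, 0.271% for AGTR1 and 0.0207% for PRL. Sorting took 50.0% for POU1F1, 41.1% for PRL, 39.2% for DRD2, 35.2% for GHRHR and 34.5% for ANGPT1. The replicate number took 83.7% for AGTR1, 74.1% for DLK1, 65.9% for GHSR, 54.6% for DRD2, 53.4% for PRL and 7.26% for POU1F1. These shares describe the 24 libraries and carry no test.

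Within replicate numbers, PRL, GH, DRD2 and GHRHR correlated closely with each other, and POU1F1 with ANGPT1. After the mean of the 4 libraries of each number was removed, Pearson's r of log2 CPM over the 24 libraries was 0.95 between PRL and DRD2, 0.94 between PRL and GH and 0.94 between GH and DRD2. GHRHR had an r of 0.86 with DRD2, 0.81 with GH and 0.80 with PRL. The value was 0.85 between POU1F1 and ANGPT1, 0.70 between POU1F1 and PRL and 0.27 between POU1F1 and GHRHR. DLK1 lay between −0.26 and 0.11 with each of the others. The libraries share their sort and treatment, so these correlations include the group differences.

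Likeness to the hormone genes and POU1F1 was ranked by the same r over the 9659 named genes averaging 5 CPM or more. These r values also include the differences between sorted and unsorted cells and between treatments. By this rule the 5 most like PRL were GPX3 (r = 0.985), a secreted glutathione peroxidase, SRPRA (0.981), a subunit of the signal recognition particle receptor, PLD3 (0.975), RAB39B (0.973) and DUSP12 (0.973). Among the 5 most like GH were SREBF1 (r = 0.975), AK1 (0.973), CHGA (0.973), a protein of secretory granules, and LHB (0.973), the beta subunit of luteinizing hormone. Among the 5 most like POU1F1 were WDR76 (r = 0.956), GRAMD2B (0.953), TMEM200A (0.951) and RUSC2 (0.950).

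Factors of the pituitary lineages were examined beside POU1F1, from a list of 15, of which 14 had a feature. Of the 12 tested, 5 rose and 1 fell in sorted over unsorted vehicle cells, with a median log2 change of 0.37, against 0.016 over all genes. Of all genes 24.4% rose and 25.8% fell, so the 6 of 12 called stand near the 50.2% called overall. With the block 6 rose and 1 fell, beside 63.6% called. LHX4, a LIM homeobox factor, rose by 1.47 ± 0.28 (adjusted p = 0.000623, edgeR) and RXRG, a retinoid X receptor, by 0.73 ± 0.19 (adjusted p = 0.00502). EYA3 fell by 0.62 ± 0.18 (adjusted p = 0.0124). Under E2 the counts for sorting were again 5 and 1, beside 51.8% of all genes called. With the block they were 6 and 2, beside 65.7%.

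With E2 and without the block, 1.37% of all genes were called in sorted and 0.245% in unsorted cells. NEUROD4, a basic helix-loop-helix factor of the pituitary, was the only one of these 12 called. It stood at 42.3, 49.0 and 64.6 CPM (lowest, median and highest) in sorted E2 cells and at 12.4, 17.7 and 27.1 CPM in sorted vehicle cells. It stood at 20.6, 25.6 and 35.8 CPM in unsorted E2 cells and at 9.27, 15.1 and 16.8 CPM in unsorted vehicle cells. The E2 and vehicle libraries did not overlap in either preparation. The rise was 1.46 ± 0.18 in sorted cells (adjusted p = 0.00102, edgeR) and 0.98 ± 0.18 in unsorted cells (adjusted p = 0.0415). With the block 4 of the 12 rose and 2 fell in sorted cells, beside 7.03% and 6.2% of all genes, and 1 rose and 2 fell in unsorted cells, beside 2.86% and 2.37%.

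LHX3, a LIM homeobox factor needed for the pituitary, was picked out after its values were seen. With the block it rose by 0.36 ± 0.076 with E2 in sorted cells (adjusted p = 0.0035, edgeR) and fell by 0.49 ± 0.081 in unsorted cells (adjusted p = 0.000563). The difference of these effects, 0.81 ± 0.15, was the only one called among the genes of the 5 lists (adjusted p = 0.0129). Without the block neither the changes, 0.39 ± 0.29 and −0.45 ± 0.31, nor their difference passed.

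Receptors that act on lactotropes or somatotropes were examined beside DRD2, GHRHR and GHSR. Of 12 tested in sorted over unsorted vehicle cells 8 rose and 1 fell (median 0.62), beside 24.4% and 25.8% of all genes. The counts with the block were also 8 and 1, beside 32.5% and 31.1%. PRLR, the prolactin receptor, rose by 1.24 ± 0.13 (adjusted p = 2.85e-06, edgeR), ESR1, the estrogen receptor alpha, by 0.71 ± 0.15 (adjusted p = 0.00106) and SSTR3, a somatostatin receptor, by 2.22 ± 0.42 (adjusted p = 0.000604). With E2 in sorted cells 0 of 11 rose and 1 fell, beside 1.11% and 0.258% of all genes. The 1 that fell was TRHR, the receptor for thyrotropin-releasing hormone, which releases prolactin as well as thyrotropin. TRHR stood at 10.97, 15.7 and 23.5 CPM in sorted E2 cells, against 21.8, 31.9 and 43.3 CPM in sorted vehicle cells, and was lower in 6 of 6 same-numbered libraries, though the groups overlapped. It fell by 1.00 ± 0.20 on the log2 scale (adjusted p = 0.0226).

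In unsorted cells edgeR called 0 of 13 of these receptors with E2 without the block, beside 0.245% of all genes. TRHR had a log2 change of −0.50 ± 0.20 there (adjusted p = 1), and with the block it fell by 0.52 ± 0.082 (adjusted p = 0.000304). With the block 5 of 11 rose and 2 fell in sorted cells, beside 7.03% and 6.2% of all genes, and 4 of 13 rose and 2 fell in unsorted cells, beside 2.86% and 2.37%. The somatostatin receptors SSTR2 and SSTR5 rose in both, SSTR5 by 1.10 ± 0.13 in sorted (adjusted p = 2.46e-06) and 0.89 ± 0.16 in unsorted cells (adjusted p = 0.001), and ESR1 fell in both, by 0.45 ± 0.063 and 0.68 ± 0.070 (adjusted p = 3.67e-05 and 1.84e-06). SSTR2, SSTR5 and ESR1 were picked for E2 after their values were seen.

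Signalling genes below DRD2 and GHRHR, which act on cyclic AMP in opposite directions, were called with the sort and with E2, mostly under the block for E2. Of 19 tested, 9 rose and 3 fell in sorted over unsorted vehicle cells (median 0.22), where 50.2% of all genes were called. GNAS, the stimulatory G protein subunit, rose by 0.80 ± 0.13 (adjusted p = 0.000196, edgeR). Without the block E2 raised 1 of the 19 in unsorted cells, ADCY5, an adenylyl cyclase, beside 0.212% of all genes. In sorted cells edgeR called 0, beside 1.37%. ADCY5 stood at 10.3, 17.2 and 20.2 CPM in unsorted E2 cells, against 4.46, 5.35 and 9.17 CPM in unsorted vehicle cells, with no overlap, and rose by 1.49 ± 0.21 (adjusted p = 0.00647). In sorted cells its change was 1.06 ± 0.30 (adjusted p = 0.141) and 1.10 ± 0.16 with the block (adjusted p = 0.000867). With the block 2 rose and 3 fell in sorted cells, beside 13.2% of all genes called, and 2 rose and 2 fell in unsorted cells, beside 5.24%.

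Around ANGPT1 and AGTR1, 4 genes of the angiotensin and angiopoietin list were tested. In sorted over unsorted vehicle cells ANGPT2, a relative of ANGPT1 that binds the same receptor, fell by 0.73 ± 0.24 (adjusted p = 0.0227, edgeR). Of the 4 genes 0 rose, beside 24.4% of all genes higher and 25.8% lower. TEK itself had a log2 change of 0.55 ± 0.33 under vehicle (adjusted p = 0.184), passed there with the block (0.62 ± 0.20, adjusted p = 0.0199), and rose by 0.87 ± 0.34 under E2 (adjusted p = 0.0441). With E2 edgeR called 0 of 4 in either preparation, with or without the block. Of all genes 13.2% were called with the block in sorted and 5.24% in unsorted cells.

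Around DLK1, 10 genes of the Notch pathway were tested. In sorted over unsorted vehicle cells 2 rose and 5 fell (median −0.60), beside 24.4% and 25.8% of all genes. With the block 3 rose and 5 fell, beside 32.5% and 31.1%. NOTCH3 fell by 2.92 ± 0.26 (adjusted p = 9.46e-07, edgeR), NOTCH2 by 1.99 ± 0.15 (adjusted p = 1.82e-07) and HES1, a repressor that Notch switches on, by 1.83 ± 0.21 (adjusted p = 7.56e-06). With E2 in sorted cells HES1 rose by 0.75 ± 0.17 (adjusted p = 0.0458), at 5.60 to 8.55 CPM in sorted E2 libraries and 3.18 to 4.63 CPM in sorted vehicle libraries, without overlap. In unsorted cells its change was 0.19 ± 0.23 (adjusted p = 1). With the block 1 of the 10 rose and 1 fell in sorted cells, beside 7.03% and 6.2% of all genes. In unsorted cells edgeR called 0, beside 5.24%.

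Markers of other cell types were called with the sort as well, beside 24.4% of all genes higher, 25.8% lower and 50.2% called. Under vehicle, all 5 gonadotrope markers rose, with CGA, the shared alpha subunit, up by 2.74 ± 0.28 (adjusted p = 3.81e-06, edgeR), and 2 of 4 corticotrope markers rose and 0 fell. Of 3 thyrotrope markers TSHB rose by 1.33 ± 0.42 (adjusted p = 0.0184) and TBX3 fell by 0.43 ± 0.12 (adjusted p = 0.00811). Among the 7 markers of fibroblasts and pericytes, 4 fell and 1 rose, and the summed level was 578 to 1235 CPM in sorted and 3159 to 8367 CPM in unsorted vehicle libraries. Of 5 endothelial markers 3 fell and 0 rose, at summed 12.1 to 32.6 CPM against 22.8 to 53.3 CPM, and of 4 immune markers 2 fell and 0 rose, at 8.70 to 17.4 CPM against 15.5 to 30.0 CPM. Of 5 folliculostellate and stem cell markers 2 rose and 3 fell, and ALAS2, the only red blood cell gene with a feature, was at 0 in all vehicle libraries. No listed marker with a feature other than ALAS2 was at 0 throughout a group. With the block 4 of 4 corticotrope, 2 of 3 thyrotrope and 1 of 5 endothelial markers rose under vehicle, beside 32.5% of all genes. The part of these cell types in the rise of PRL, GH, POU1F1, DRD2, ANGPT1 and GHRHR with sorting was not tested.

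Few of the same markers were called with E2. Of all genes 1.37% were called without the block in sorted and 0.245% in unsorted cells. Without the block GNRHR, the receptor for gonadotropin-releasing hormone, was the only marker of the 8 lists called, and it rose by 1.98 ± 0.38 in sorted (adjusted p = 0.0175, edgeR) and 2.86 ± 0.44 in unsorted cells (adjusted p = 0.0157). With the block 13.2% of all genes were called in sorted and 5.24% in unsorted cells. In these fits 1 gonadotrope marker rose and 1 fell in each preparation. Among folliculostellate and stem cell markers 2 of 5 fell in sorted cells, and 1 of 4 corticotrope markers fell in unsorted cells. Of the 3 thyrotrope markers 1 rose and 1 fell in sorted cells, and 1 rose and 0 fell in unsorted cells. TSHB and DIO2, an enzyme that activates thyroid hormone, were picked after their values were seen. TSHB, which like PRL and GH depends on POU1F1, had a blocked log2 change of −0.30 ± 0.046 in sorted (adjusted p = 0.000122) and 0.12 ± 0.043 in unsorted cells (adjusted p = 0.142). DIO2 rose by 0.40 ± 0.060 in sorted (adjusted p = 6.77e-05) and 1.01 ± 0.097 in unsorted cells (adjusted p = 0.000144), higher in 6 of 6 same-numbered libraries in both. The summed thyrotrope level was 226 to 1045 CPM in sorted E2 and 285 to 1229 CPM in sorted vehicle libraries, which overlapped.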

How the data were processed

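RNA-seq of 24 libraries was used. The deposited counts are whole reads per gene in 3 tables of 27054 Ensembl sheep features, counted with featureCounts 1.5.1 per the submitters' processing notes. The 12 vehicle libraries stand in 2 tables, and 0 values differed between copies. Genome build, aligner and use of strand: not given in the sources used here. No coordinates are therefore printed, and a gene and its antisense partner could not be told apart. The 3 deposited comparison tables hold log2 fold changes, log2 mean levels, p-values and false discovery rates, per the file headers. The sorted against unsorted table runs unsorted over sorted. A further deposited fold change column, on another scale, was not used.

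The tool was edgeR 4.0.16 under R 4.3.3, with TMM scaling, filterByExpr, robust glmQLFit and the 2-sided glmQLFTest, on the groups compared, or on all 4 groups for the difference of E2 effects, with Benjamini-Hochberg adjustment over all genes tested. The SE of a log2 change is its size divided by the root of the F statistic. CPM used 1 TMM scaling over 24 libraries, and log2 CPM a prior count of 2. PRL shares used exact permutation tests, adjusted over 4 comparisons. The fits were also run on simulated counts that held no effect of the replicate number. Those runs cannot show how the fits behave where libraries deviate by replicate number.

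The labels do not state what libraries of the same number have in common. In the counts, same-numbered libraries centred by group correlated at 0.290 to 0.859, and 24 of 24 correlated best with their own number. Centred also by depth set, the range was 0.255 to 0.824. Every pair was above 0.1, so the numbers were taken to pair the libraries.

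The 9 genes, 5 role lists and 8 marker lists were chosen with earlier results of these data known. Named genes are the 9, up to 4 called genes of each list with the smallest p in each comparison and the 5 genes most like PRL, GH and POU1F1; others are said to be picked later. Some genes that this rule names are not reported here. Alternatives were RLE scaling, DESeq2 1.42.0, no filter on low counts, the replicate block, each depth set, PRL and GH left out of scaling, all groups in 1 fit and single libraries left out. Leaving out same-numbered pairs under the block was added after the data were seen. PCR reads are not independent molecules. Sequences were not used here.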

Additional observations from a re-analysis of the deposited data

Results flagged for a closer look

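AGTR1 in sorted E2 replicate 2 stood at 19.65 CPM, farther above the other 5 libraries of its group (5.39 to 9.33 CPM) than Dixon's test at the 95% level allows for 6 libraries. Of 44 groups of 6 tested this was 1, and chance picks about 1 group in 20. Replicate 2 had the highest AGTR1 level in the other 3 groups as well, at 21.3 CPM in sorted vehicle, 17.3 CPM in unsorted E2 and 12.8 CPM in unsorted vehicle cells.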

How the results depend on the processing

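The log2 changes of the 9 genes kept their direction under RLE scaling, DESeq2, no filter on low counts, PRL and GH left out of scaling and all 4 groups in 1 fit. They also kept it with the replicate block, which changed no call other than those given beside the results. The depth sets reversed 4 values that were not called: AGTR1 for sorting under E2 in replicates 1 to 3 (−0.038), and in replicates 4 to 6 DLK1 for sorting under E2 (−0.299), DLK1 for E2 in unsorted cells (0.074) and the difference of E2 effects for ANGPT1 (−0.165). The causes were not tested. Low counts limit GHSR and DLK1 most.

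The difference in PRL share for sorting under vehicle was 6.705 points in replicates 1 to 3 and 3.649 points in replicates 4 to 6, where no p below 0.1 is possible. With the replicate block as an exact sign-flip test, 4.12 points for sorting under E2 and 0.5758 points for E2 in unsorted cells passed. Among the 9 genes, no filter gave 3 calls for sorting under E2. For E2 in sorted cells the block gave 4 and replicates 4 to 6 gave 2. For E2 in unsorted cells DESeq2 gave 2, the block 4, replicates 1 to 3 gave 1, replicates 4 to 6 gave 2 and all 4 groups in 1 fit gave 1. Over all genes, E2 in sorted cells gave 402 calls by DESeq2, 1896 with the block, 563 in replicates 1 to 3 and 1277 in replicates 4 to 6. E2 in unsorted cells gave 124, 790, 67 and 730 in that order, and 73 with all 4 groups in 1 fit. The difference of E2 effects gave 17 by DESeq2, 0 with no filter, 70 with the block, 2 in replicates 1 to 3 and 47 in replicates 4 to 6.

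Leaving out 1 library moved the PRL share differences between 4.206 and 6.139 points for sorting under vehicle, 3.381 and 5.182 for sorting under E2 and −1.443 and 0.5809 for E2 in sorted cells. Calls among the 9 genes for sorting under E2 ran from 2 to 5. Calls over all genes ran from 125 to 208 for E2 in sorted cells, 11 to 48 for E2 in unsorted cells and 0 to 4 for the difference of effects. The values that changed sign were not called. AGTR1 ran from −0.214 to 0.533 for sorting under E2, −0.578 to 0.134 and −0.218 to 0.361 for E2 in sorted and unsorted cells, and −0.722 to 0.019 for their difference. GH ran from −0.521 to 0.383, −0.511 to 0.599 and −0.727 to 0.387 in the last 3 of these. In sorted E2 over vehicle cells PRL ran from −0.201 to 0.072 and DRD2 from −0.067 to 0.206. The difference of effects ran from −0.245 to 0.046 for DRD2, −0.028 to 0.24 for ANGPT1 and −0.185 to 0.007 for GHRHR. With the block, leaving out 1 pair moved DLK1 between −0.039 and 0.075 for sorting under E2 and −0.11 and 0.055 for E2 in unsorted cells, and GH between −0.008 and 0.052 for E2 in unsorted cells.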
